A study of Danio rerio with 25 samples.

Results

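MicroRNA hairpins of male zebrafish (Danio rerio) skin were compared between 36 and 6 months of age. All 346 hairpin rows of the count table entered the comparison, and its libraries were chosen by their age labels, 5 of 36 months (labelled 3 years) and 5 of 6 months, out of 25 libraries at 5 ages. The 36-month fish were of the strain AB JxTü Tg(pu.1:GFP), which carries a green fluorescent reporter under the pu.1 promoter, active in myeloid cells. The 6-month fish were AB JxTü without a transgene. AB and Tü are common laboratory zebrafish strains. The strain label changes with age here, and their parts cannot be told apart. Fish of 42 months (AB JxTü with a wt1a:GFP transgene), 24 months (AB JxTü, as at 6 months) and 12 months (AB JxTü with a flk:mCherry transgene) enter the fit and are used at the end. The labels give every library its own number but do not say in words that each is a separate fish, so p-values measure the spread between libraries.

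MicroRNAs are short RNAs cut from hairpin precursors, and they lower the stability and translation of messenger RNAs that match their seed, a short stretch near the 5′ end. Neighbouring hairpins are often cut from one primary transcript, many sit in the introns of protein-coding genes, and copies of a hairpin elsewhere in the genome can give the same mature RNA. In skin, microRNAs of the miR-200, miR-203 and miR-205 families are known from epithelial cells and keratinocytes. In whole skin, fewer cells of a type and less RNA per cell cannot be told apart.

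The 10 libraries held between 2139748 and 5196081 counts on hairpins. The 36-month ones averaged 3278810 ± 872458 and the 6-month ones 3786530 ± 1137150 (SD, n = 5 each). Totals were not separated by an exact two-sided permutation test (p = 0.405, of a smallest possible 0.00794). The number of hairpins with at least 10 counts was also close, 255.4 ± 2.97 at 36 months and 253.4 ± 3.97 at 6 months (exact p = 0.452). The keratinocyte microRNA miR-205 was among the most abundant at both ages. It averaged 43239 ± 8674 CPM, the count scaled for library size, at 36 months and 57084 ± 15525 CPM at 6 months. Pearson correlations of log2 CPM over 190 microRNAs ran from 0.966 to 0.990 within 36 months, from 0.974 to 0.992 within 6 months and from 0.954 to 0.983 between the ages. The first principal component took 44.0% of the variance and had all 36-month libraries on one side and all 6-month libraries on the other. Within the groups, 36 months replicate 3 stood apart on the second component and 6 months replicate 1 on the third.

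Copies of one microRNA held nearly equal counts in this table. Among the 31 multi-copy microRNAs that averaged 1000 or more summed counts, the copies of 23 lay within 1.1 times of each other, so copies were summed by name before most tests. A microRNA below means such a sum, with its level in CPM scaled by TMM factors, and a change is the log2 ratio of 36 over 6 months with its standard error (SE). A microRNA is said to have risen or fallen at 36 months where edgeR's quasi-likelihood test gave a Benjamini-Hochberg adjusted p under 0.05 over all names tested.

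Of 190 microRNAs tested, 19 rose (10%) and 18 fell (9.47%) at 36 months. The risen ones changed by 0.40 to 2.61 on the log2 scale, and 11 of them averaged over 1000 CPM. Among them were 5 members of the miR-23/24/27 clusters, miR-132, miR-212, miR-31, miR-146a and miR-34a. The fallen ones changed by 0.43 to 3.25 in size, and 6 averaged over 1000 CPM. All 3 members of the family of miR-103 and miR-107 fell, as did miR-1388, miR-455, miR-206, miR-2185 and 3 of 10 let-7 members. CPM ranges of the groups did not overlap for 23 microRNAs with 36 months above (12.1% of those tested) and for 16 with 36 months below (8.42%). As deposited, with copies counted apart, 28 of 258 hairpins rose (10.9%) and 37 fell (14.3%).

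The median log2 change over all 190 names was -0.08, and 87 were above 0. The balance of calls moved with the scaling. With TMM factors taken from the hairpin table, 15 rose and 29 fell and the median was -0.16. With library size alone 16 rose and 27 fell, and after thinning all libraries to 2139748 counts 15 rose and 24 fell. Without 36 months replicate 3 there were 17 rises and 30 falls, and without that library and 6 months replicate 1 there were 16 and 21. The 18 microRNAs that fell were all among the 29, the 27 and the 24.

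**Figure D1:**
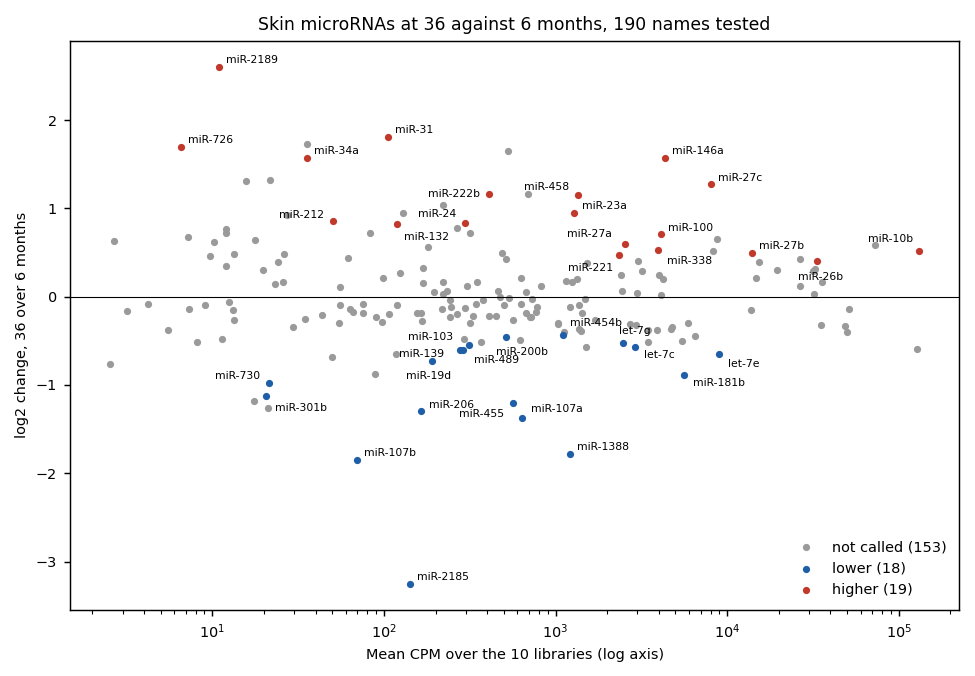
Log2 change (36 over 6 months, y axis) of 190 microRNAs against their mean CPM over the 10 libraries (x axis, log scale), with 19 that rose in red, 18 that fell in blue and the others in grey. The largest changes, those of miR-2185 and miR-2189, were of microRNAs averaging 141.8 and 10.9 CPM, while the most abundant, miR-10b, changed by 0.52.

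The list with the most risen members was that of miR-23, miR-24 and miR-27, whose hairpins lie next to one another at several places in the genome and which are known in mammals from vessel growth and fat-cell differentiation. Of 8 names tested 5 rose and none fell, with a median log2 change of 0.55 against -0.08 over all names, and the 5 rose under each of the scalings named above. By hairpin, 13 of 16 rose, though most of these are copies that may share reads. miR-27c had 14141, 9715, 12709, 11399 and 8909 CPM at 36 months, against 3225, 5085, 5941, 4563 and 4724 CPM at 6 months. Every 36-month library lay above every 6-month one, and the change was 1.27 ± 0.17 (SE, adjusted p = 1.57e-05), a 2.42-fold higher level.

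miR-23a had 1878, 1631, 1699.5, 1623 and 1640.3 CPM at 36 months, against 985, 969, 841, 770.5 and 832 CPM at 6 months. The groups were far apart relative to their spread, at 1694 ± 106.9 and 879 ± 93.3 CPM (SD, n = 5 each), a change of 0.95 ± 0.13 (adjusted p = 1.57e-05). miR-24 held 345, 287, 472, 440.1 and 367 CPM at 36 months, against 234, 205.6, 223.5, 179.7 and 225 CPM at 6 months, again without overlap (0.84 ± 0.14, adjusted p = 9.41e-05). miR-27a averaged 3060.4 ± 378 CPM at 36 months and 2025 ± 130.3 CPM at 6 months (0.60 ± 0.12, adjusted p = 0.00112). miR-27b, the most abundant of them, averaged 16297 ± 2733 CPM at 36 months and 11545 ± 882 CPM at 6 months (0.50 ± 0.10, adjusted p = 0.00112). Its ranges overlapped, since 36 months replicate 2 lay at 12553 CPM, below the highest 6-month library at 12819 CPM.

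The other 3 names of the group did not pass. miR-27d averaged 634 ± 131 CPM at 36 months and 721 ± 86.7 CPM at 6 months, miR-23b 375 ± 27.1 and 384 ± 51.7 CPM, and miR-27e 1223 ± 123 and 1079 ± 75.3 CPM. miR-23b and miR-27d lie together with the copy miR-24-1 within the span of apba1b in the RefSeq annotation of GRCz12tu, and at that place miR-24-1 alone rose. The other places with neighbouring hairpins of this group were miR-23a-1, miR-27e and miR-24-4, then miR-23a-2, miR-23a-4, miR-27c-1 and miR-24-2, then miR-23a-3 and miR-27a, and miR-24-3 and miR-27b within aopep. At each of these every hairpin but miR-27e rose. Since reads of miR-23a and miR-24 may be shared among their copies, a rise of a copy does not show which place it came from.

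**Figure D2:**
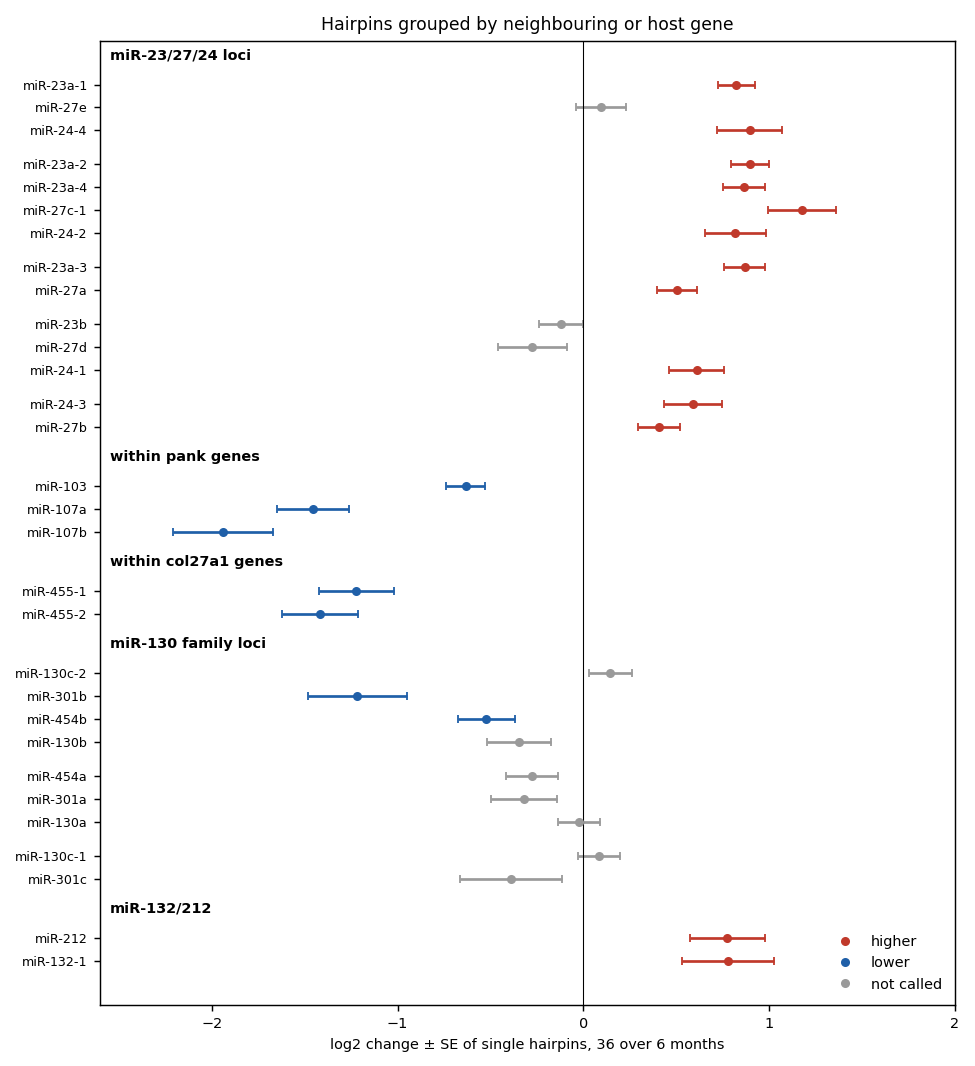
Log2 change ± SE (x axis, 36 over 6 months) of single hairpins, grouped by neighbours in the genome or by the gene they lie in, with risen hairpins in red, fallen ones in blue and others in grey. The miR-23/24/27 hairpins lie to the right of 0 except miR-23b and miR-27d, while miR-103, miR-107a, miR-107b and both copies of miR-455 lie to the left.

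In mammals miR-132 and miR-212 come from one cluster, known for its induction by neuronal activity. Both names rose. miR-212 had 68.4, 80.6, 55.5, 55.0 and 67.5 CPM at 36 months, against 39.9, 34.8, 42.5, 34.9 and 29.1 CPM at 6 months. No library of the groups overlapped, and the change was 0.86 ± 0.19 (adjusted p = 0.00206). miR-132 averaged 151 ± 27.98 CPM at 36 months and 85.8 ± 30.6 CPM at 6 months (0.82 ± 0.23, adjusted p = 0.0114), with overlapping ranges because 6 months replicate 3 reached 135 CPM. Without 36 months replicate 2 its change was 0.66 and its adjusted p 0.0557. In the RefSeq annotation miR-212 and miR-132-1 lie within the span of tp53i13. The miR-132 values sum 3 copies, of which miR-132-1 was found beside miR-212. Counts of the copies differed by up to 3.10 times. All 3 rose as hairpins, by 0.73 to 0.78, and they may share reads.

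miR-221, miR-222a and miR-222b share a seed and are known in mammals for repressing cell-cycle inhibitors. Of the 3, miR-222b and miR-221 rose. miR-222b had 759, 415, 559, 498.9 and 613 CPM at 36 months, against 267, 252, 250.2, 261 and 237 CPM at 6 months. The 6-month libraries were nearly identical and all 36-month ones lay above them (1.17 ± 0.19, adjusted p = 5.63e-05). miR-221 averaged 2710.3 ± 681 CPM at 36 months and 1954 ± 124.4 CPM at 6 months, with an adjusted p of 0.0487 that was above 0.05 in 9 of 10 repeats leaving out a library (0.47 ± 0.17). The third, miR-222a, averaged 4502 ± 677 CPM at 36 months and 3918 ± 386 CPM at 6 months (0.20 ± 0.19, adjusted p = 0.447).

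Of the 4 microRNAs listed for inflammation (miR-21, miR-146a, miR-146b and miR-155), the one that rose was miR-146a, which dampens innate immune signalling in mammals. It held 5051, 5282, 4510.5, 9927 and 7658 CPM at 36 months, against 2117, 2127, 2348, 2259.6 and 2044 CPM at 6 months. All 36-month libraries lay above the 6-month ones and varied more among themselves, and the change was 1.57 ± 0.32 (adjusted p = 0.00112). Its relative miR-146b averaged 956 ± 247 CPM at 36 months and 426 ± 149.7 CPM at 6 months, without passing (1.17 ± 0.54, adjusted p = 0.127). miR-21, the third most abundant microRNA of this skin, took 8.55% ± 0.763 of all counts at 36 months and 5.98% ± 0.962 at 6 months (SD, n = 5 each). Its CPM were 86489, 92822, 87348, 94439 and 73858 at 36 months, against 54969, 58878, 64493, 51170.2 and 59352 at 6 months. These did not overlap, yet the change of 0.59 ± 0.25 had an adjusted p of 0.0959. With the 42-month libraries left out of the fit the adjusted p was 0.00248, and over all alternatives it ran from 0.0012 to 0.256. At 42 months miR-21 spread widely, at 138891 ± 80978 CPM (SD, n = 5). Of this list's 4 members, the fourth, miR-155, did not pass either, and the list's median was 0.88.

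miR-31 is known from keratinocytes, in which it is induced at wound edges in mammals. It held 160.1, 139.8, 221.2, 184 and 113 CPM at 36 months, against 54.2, 39.3, 51.3, 34.5 and 54.0 CPM at 6 months. The groups lay far apart, with a 3.50-fold higher mean level (1.81 ± 0.26, adjusted p = 2.18e-05). miR-34a, transcribed under the control of p53, held 33.0, 73.4, 57.0, 36.0 and 65.7 CPM at 36 months, against 13.7, 16.2, 20.5, 20.98 and 17.8 CPM at 6 months. The ranges again were apart (1.57 ± 0.42, adjusted p = 0.00837). Its relatives miR-34b and miR-34c had too few counts to be tested.

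The largest rise was that of a rare microRNA, miR-2189, with 36.1, 22.2, 10.2, 11.1 and 14.1 CPM at 36 months, against 1.48, 4.31, 2.93, 4.99 and 1.44 CPM at 6 months. These came from 313 raw counts in all at 36 months and 60 at 6 months, so the 6.09-fold difference (2.61 ± 0.58, adjusted p = 0.00203) rests on few reads. All 36-month libraries were above all 6-month ones. miR-726 was as rare, at 10.03 ± 4.20 CPM at 36 months and 3.09 ± 0.894 CPM at 6 months, with at most 56 raw counts in a library (1.70 ± 0.40, adjusted p = 0.00314). The more abundant miR-458, within the span of htr4, held 2486, 1888, 1579, 1834 and 1561 CPM at 36 months, against 649, 821, 1045, 834 and 863 CPM at 6 months. Its groups were well apart (1.15 ± 0.25, adjusted p = 0.00146).

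Other abundant microRNAs rose by smaller amounts than miR-146a (1.57) and miR-27c (1.27). miR-100, often clustered with let-7 genes, held 5768, 4982, 5282, 4918 and 4662 CPM at 36 months, against 3709, 3304, 3185, 2683 and 2796 CPM at 6 months, without overlap (0.71 ± 0.15, adjusted p = 0.00147). Its list partners miR-99, miR-125a, miR-125b and miR-125c did not pass. The most abundant microRNA of the skin, miR-10b, encoded within Hox clusters (hoxd3a and hoxc3a in the annotation), took 15.2% ± 1.46 of all counts at 36 months and 10.96% ± 1.24 at 6 months. Its rise of 0.52 ± 0.18 (adjusted p = 0.0487) was near the limit. Leaving out a library lifted the adjusted p above 0.05 in 8 of 10 repeats, as did TMM factors from the hairpin table. All 8 microRNAs of the Hox clusters had a log2 change above 0 (median 0.23), but 6 of 8 with those factors, and the other 7 were not called.

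miR-26b, within the span of ctdsp2, averaged 37739.8 ± 2222 CPM at 36 months and 28636 ± 1437 CPM at 6 months (0.40 ± 0.12, adjusted p = 0.0208). It lost the call in 5 of 10 repeats without a library and in 6 of the 13 other alternatives. miR-26a, its close relative, averaged 37953 ± 3658 CPM at 36 months and 33914 ± 2257 CPM at 6 months and was not called. miR-338, named here after its values were seen, averaged 4664 ± 930.0 CPM at 36 months and 3228 ± 213 CPM at 6 months (0.53 ± 0.18, adjusted p = 0.0448). Neither copy of miR-338 was called when tested apart, nor was it called in the fit of families (0.46 ± 0.22, adjusted p = 0.149).

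**Figure D3:**
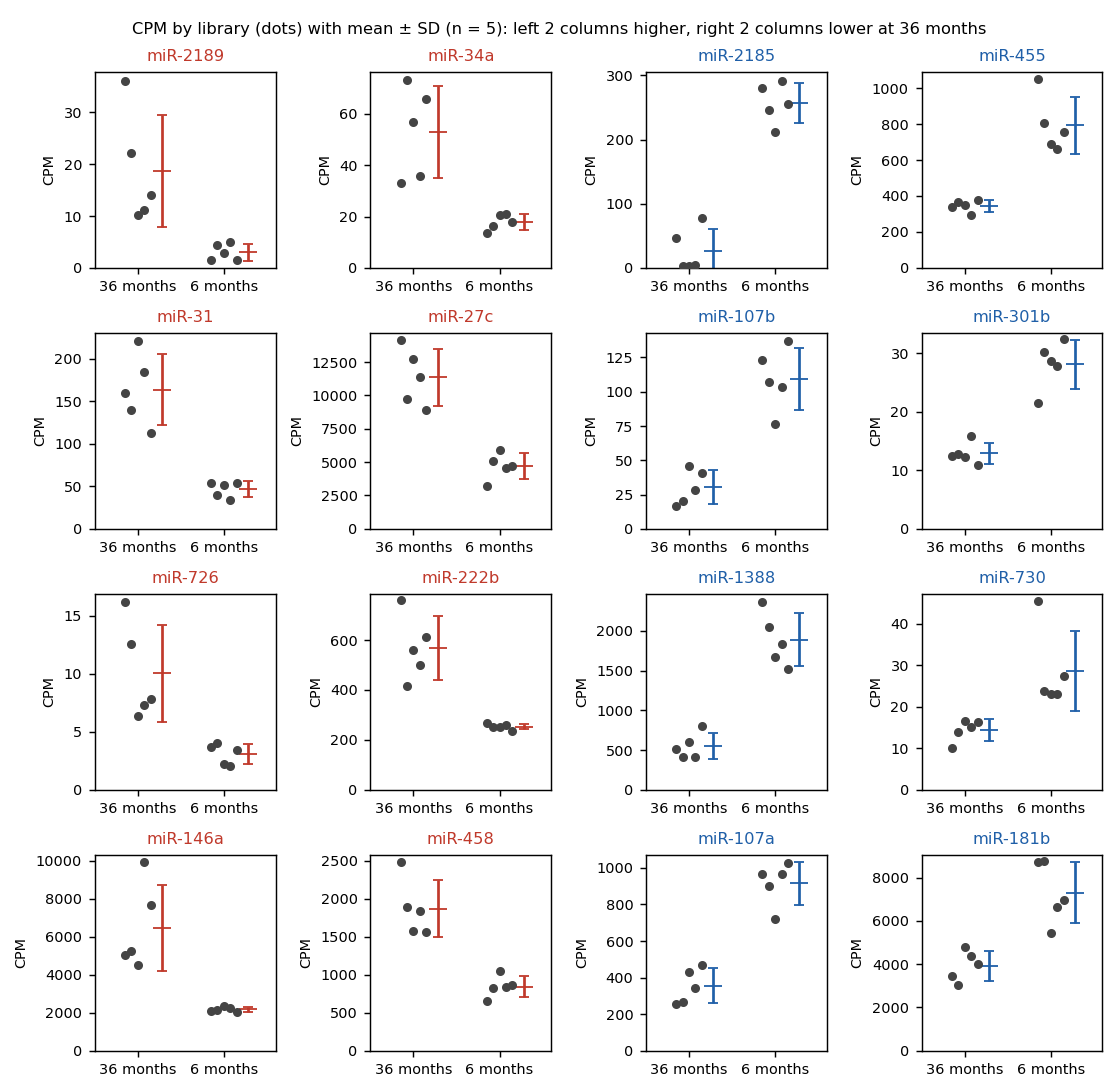
CPM (y axis, linear from 0) of 16 microRNAs in each of 5 libraries at 36 and 5 at 6 months (dots), with mean ± SD beside them; the left 8 panels rose and the right 8 fell. The panels were picked among microRNAs whose ranges did not overlap, so the groups are apart in every panel by choice. Of the 19 that rose 16 had no overlap, and of the 18 that fell 12. The lower SD bar of miR-2185 at 36 months is cut at 0.

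On the other side, the whole family of miR-103 and miR-107 fell at 36 months. These microRNAs share a seed and are known in mammals from insulin sensitivity and fat metabolism, and each lies within a pantothenate kinase gene, the kinase that starts the synthesis of coenzyme A: miR-107b within pank1a, miR-107a within pank1b and miR-103 within pank2. The list's median was -1.37 with 3 of 3 lower, and each kept its call under all alternatives. miR-107b held 16.5, 20.7, 45.8, 28.4 and 40.9 CPM at 36 months, against 123, 107.2, 76.6, 103.4 and 136.9 CPM at 6 months. The highest old library lay well under the lowest young one (-1.85 ± 0.28, adjusted p = 3.22e-05). miR-107a held 258, 268, 431, 343 and 471 CPM at 36 months, against 965, 902, 723, 965 and 1025 CPM at 6 months, a 2.59-fold lower level (-1.37 ± 0.21, adjusted p = 3.52e-05). miR-103, with 259, 217, 255, 255 and 287 CPM at 36 months, against 399, 390.2, 323, 367 and 384 CPM at 6 months, fell least (-0.55 ± 0.13, adjusted p = 0.00231). In the RefSeq annotation its host pank2 is another gene than the hosts of the pair that fell more.

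miR-455 is known from cartilage and is encoded within a fibrillar collagen gene, its copies lying within col27a1b and col27a1a. It held 336, 368, 349, 292 and 376 CPM at 36 months, against 1052, 807, 687, 659 and 757 CPM at 6 months. The 36-month libraries were even and all below the 6-month ones (-1.20 ± 0.19, adjusted p = 4.67e-05). Its copies do not hold equal counts, 1 having 2.15 times the other's, and they fell alike, by 1.22 (miR-455-1) and by 1.42 (miR-455-2). The other microRNA listed for cartilage, miR-140, averaged 488 ± 94.6 CPM at 36 months and 520.5 ± 230.5 CPM at 6 months and was not called (-0.09 ± 0.30, adjusted p = 0.839).

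miR-1388 held 519, 414, 601, 409 and 807 CPM at 36 months, against 2366, 2043, 1667, 1839 and 1516 CPM at 6 months. No library came near the other group, and the level was 3.43-fold lower at 36 months (-1.78 ± 0.26, adjusted p = 2.18e-05). The largest fall was that of miR-2185, whose copies lie within pimr60, pimr62 and an uncharacterised gene. It held 46.2, 2.24, 2.44, 4.15 and 78.4 CPM at 36 months, against 279.7, 247, 211.4, 291 and 256 CPM at 6 months. The 6-month libraries were even, while at 36 months replicates 1 and 5 stood far above the others, all still below 6 months. Its change was -3.25 ± 0.88 (adjusted p = 0.00955), a 9.52-fold lower level, and -4.22 without 36 months replicate 5.

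miR-206, a microRNA of skeletal muscle, fell. It held 88.6, 152.2, 73.6, 47.7 and 115 CPM at 36 months, against 228, 121.5, 322, 251 and 254 CPM at 6 months. One library of each group crossed, 36 months replicate 2 lying above 6 months replicate 2, and the change was -1.30 ± 0.30 (adjusted p = 0.00231). The other 5 muscle microRNAs did not pass, although all 6 had a log2 change below 0 (median -0.34). miR-133a, by far the most abundant of them, averaged 5542 ± 2132 CPM at 36 months and 7529 ± 2361 CPM at 6 months (-0.44 ± 0.32, adjusted p = 0.323), and miR-1 averaged 91.3 ± 46.0 and 143.2 ± 48.0 CPM. The summed level of the 6 ran from 3304 to 9836 CPM at 36 months and from 5061 to 11228 CPM at 6 months. The part of muscle content in the fall of miR-206 was not tested.

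The miR-181 family, known from lymphocytes and other tissues, had a log2 change below 0 in all 3 tested names, and miR-181b fell. miR-181b held 3454, 3051, 4783, 4366 and 4024 CPM at 36 months, against 8720.1, 8764, 5450.1, 6641 and 6961 CPM at 6 months. The groups did not overlap (-0.89 ± 0.28, adjusted p = 0.0237), and the adjusted p was 0.0585 without 36 months replicate 1 and 0.0553 without 6 months replicate 2. The second most abundant microRNA of the skin, miR-181a, took 10.02% ± 1.26 of all counts at 36 months and 15.6% ± 1.57 at 6 months. Its CPM were 96794, 80041, 113590.0, 111492 and 107778 at 36 months, against 194849, 175422, 118906, 140556 and 137960.0 at 6 months. The ranges were apart but close. With copies summed the change of -0.59 ± 0.22 just missed the threshold (adjusted p = 0.0577), while both copies passed when tested apart (adjusted p = 0.00802 for miR-181a-1). The copies held nearly equal counts and are not separate evidence. With the TMM factors of that hairpin fit, the summed name also passed (-0.67, adjusted p = 0.00946). Over the alternatives the adjusted p ran from 0.00144 to 0.113 and was under 0.05 in 12 of 23. miR-181c averaged 283 ± 46.3 CPM at 36 months and 310.2 ± 54.1 CPM at 6 months and was not called.

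The let-7 family, which builds up in differentiating tissue, had a log2 change below 0 in all 10 names tested, with a median of -0.37. Of them 3 fell, beside 9.47% of all names tested. With TMM factors from the hairpins 6 of 10 fell, and falls over all names were also more numerous, as given above. let-7e held 6050.5, 6035, 8793, 7349.6 and 6859 CPM at 36 months, against 8595, 12442, 10487, 12146 and 11380.3 CPM at 6 months, with an overlap of 1 library on each side (-0.65 ± 0.16, adjusted p = 0.00408). let-7g averaged 2028 ± 326 CPM at 36 months and 2921 ± 259 CPM at 6 months, without overlap (-0.53 ± 0.13, adjusted p = 0.00433). let-7c averaged 2347 ± 191 CPM at 36 months and 3482 ± 511 CPM at 6 months (-0.57 ± 0.18, adjusted p = 0.0288). Its adjusted p was 0.0845 without 6 months replicate 2 and 0.0505 without 36 months replicate 5. let-7a, the most abundant member, was not called, at 48744 ± 4085 CPM at 36 months and 53896 ± 6810.2 CPM at 6 months (-0.14 ± 0.13, adjusted p = 0.446). let-7c copies have miR-99 and miR-125c as neighbours, and neither of those was called, at 0.06 and 0.12.

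miR-301b and miR-454b lie beside miR-130c-2 and miR-130b, and all share a seed. miR-301b held 12.5, 12.8, 12.2, 15.9 and 10.9 CPM at 36 months, against 21.4, 30.2, 28.6, 27.8 and 32.4 CPM at 6 months, clearly apart (-1.13 ± 0.25, adjusted p = 0.00171). miR-454b averaged 942 ± 154 CPM at 36 months and 1268 ± 210.8 CPM at 6 months (-0.43 ± 0.15, adjusted p = 0.0453), a call lost in 6 of 10 repeats without a library. Their neighbours miR-130c, at 1429 ± 120.4 CPM at 36 months and 1244 ± 85.0 CPM at 6 months, and miR-130b, at 514 ± 70.1 and 617 ± 90.2 CPM, were not called. In all 2 of the 8 microRNAs with this seed fell and none rose (median -0.24), beside 9.47% of all names that fell.

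The miR-17-92 group of clusters is known for driving proliferation. Of its 15 members miR-19d alone passed, beside 9.47% of all names that fell. It held 139.5, 121, 157, 149 and 149 CPM at 36 months, against 303, 236, 195, 227 and 224 CPM at 6 months, without overlap (-0.73 ± 0.21, adjusted p = 0.0141). It lies in mcm7 beside miR-25, at 3010.2 ± 258 CPM at 36 months and 2922 ± 183.5 CPM at 6 months, and beside miR-93, neither of which was called. The median of the group was 0.04, and -0.0447 with TMM factors of the hairpins.

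Other microRNAs that fell were of low or middling level. miR-730 averaged 14.4 ± 2.65 CPM at 36 months and 28.5 ± 9.60 CPM at 6 months (-0.98 ± 0.28, adjusted p = 0.0153). Without 36 months replicate 1 its adjusted p was 0.0507. miR-489, within calcr, averaged 229.6 ± 79.4 CPM at 36 months and 349 ± 22.5 CPM at 6 months (-0.60 ± 0.19, adjusted p = 0.0254). Its adjusted p was 0.0571 without 36 months replicate 2 and 0.0688 without 36 months replicate 5. miR-139, within pde2a and named here after its values were seen, averaged 221.2 ± 35.5 CPM at 36 months and 335 ± 67.2 CPM at 6 months (-0.60 ± 0.21, adjusted p = 0.0448).

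Most epidermal microRNAs did not pass the test. miR-200b, which with its family keeps epithelial cells from mesenchymal traits, was 1 of 9 that fell, at 436 ± 80.5 CPM at 36 months and 599.5 ± 64.0 CPM at 6 months (-0.46 ± 0.14, adjusted p = 0.0254). Its adjusted p was 0.0926 without 36 months replicate 1, 0.0749 without 6 months replicate 4 and 0.0594 without 6 months replicate 5. The cluster partners miR-200a, at 3390.2 ± 705 CPM at 36 months and 4397 ± 832 CPM at 6 months, and miR-429a, at 2422 ± 636 and 2994 ± 441 CPM, differed by -0.38 ± 0.17 and -0.31 ± 0.18 without passing. miR-203b, known for keratinocyte differentiation in mice, averaged 32446 ± 7864 CPM at 36 months and 31702 ± 3547 CPM at 6 months. Its change of 0.03 ± 0.19 (adjusted p = 0.894) turned sign with library size alone and with other settings. miR-205 changed by -0.40 ± 0.39 (adjusted p = 0.458). miR-200c was not called by name (-0.37 ± 0.15, adjusted p = 0.0938) but was lower in the fit of hairpins (-0.46). As miR-200c has a single hairpin, both fits test the same counts with other scaling and adjustment. By name it was called lower with upper-quartile scaling, with library size alone, with TMM factors of the hairpins and after thinning. Summed as a family, miR-200 fell (-0.47, adjusted p = 0.0470), a call lost in 17 of 22 alternatives. The summed level of the 9 ran from 68990 to 109685 CPM at 36 months and from 78910 to 118713 CPM at 6 months, and their median change was -0.37. Without 36 months replicate 3 and 6 months replicate 1, the 2 libraries that stood apart, 4 of the 9 fell (miR-141, miR-200a, miR-200b and miR-429a). Falls over all names were also more numerous in that setting, as given above.

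**Figure D4:**
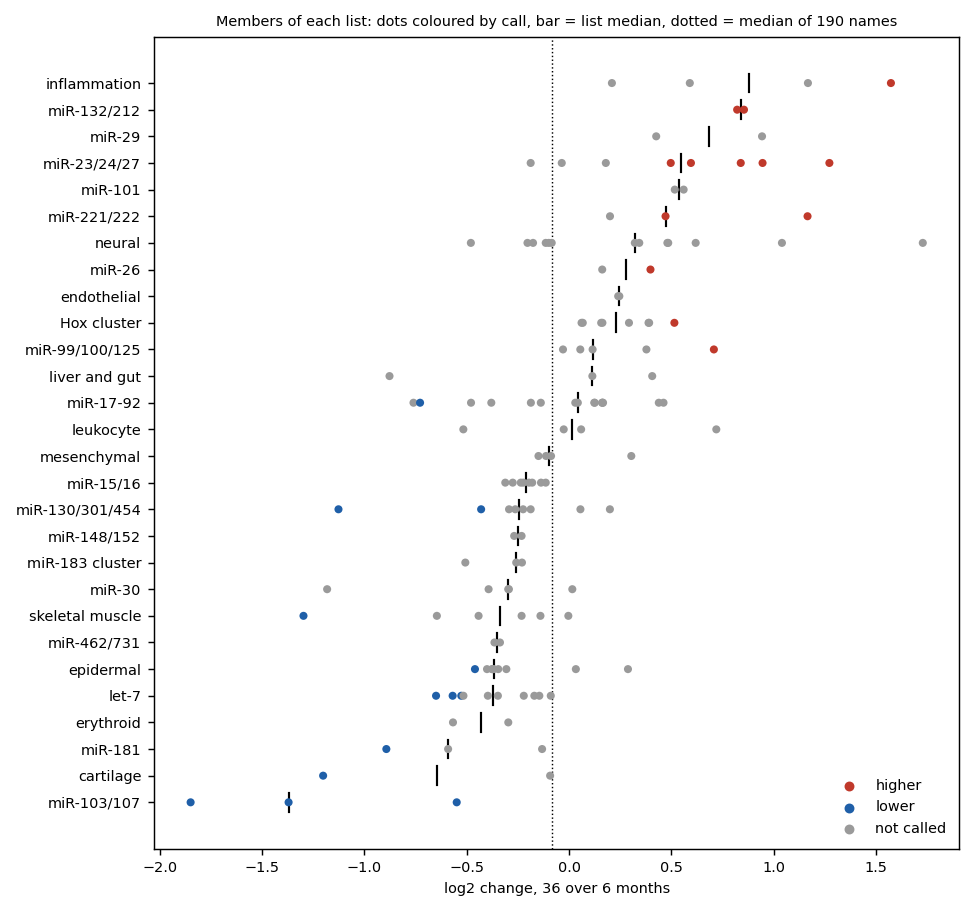
Log2 change (x axis, 36 over 6 months) of every tested member of the lists with at least 2 tested members (rows); dots are microRNAs coloured by call, the bar is the list's median and the dotted line the median of all 190 names, -0.08. The list of miR-103 and miR-107 lies farthest to the left, and lists with risen members, those of miR-132 with miR-212 and of miR-23/24/27 among them, lie to the right.

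Markers of other cells were measured beside these. Every member of the lists for leukocytes, red cells, vessels, muscle, nerve and pigment cells in the table had counts. The reporter carried by the 36-month fish is active in myeloid cells, and the myeloid microRNA miR-223 had 75.5, 116, 123, 94.1 and 109 CPM at 36 months, against 102, 51.7, 59.7, 55.0 and 46.1 CPM at 6 months. All 36-month libraries lay above the 6-month ones except replicate 1 of 6 months, which lay among them. The change of miR-223 was 0.72 ± 0.35 (adjusted p = 0.150), and it was called higher without the 42-month group in the fit (adjusted p = 0.0270) and with only the 2 ages in it (adjusted p = 0.0275). miR-142a, of all blood lineages, averaged 2494 ± 356 CPM at 36 months and 2394 ± 395 CPM at 6 months (0.06 ± 0.17, adjusted p = 0.817), with a sign that turned under other scalings. miR-150, of lymphocytes, averaged 303 ± 63.9 CPM at 36 months and 433 ± 118 CPM at 6 months (-0.52 ± 0.21, adjusted p = 0.0836). miR-150 was called lower in the fit of hairpins (adjusted p = 0.0247) and in that of families (adjusted p = 0.0304). As miR-150 has a single hairpin, these fits test the same counts with other scaling and adjustment. The family call was lost in 11 of 22 alternatives. As a name, miR-150 was called lower with library size alone, with TMM factors of the hairpins and after thinning. By name and with the scaling used here, none of the 4 leukocyte members was called. Their median was 0.02, and -0.0642 with library size alone, and their sum ran from 3127 to 4158 CPM at 36 months and from 2886 to 4283 CPM at 6 months. The part of leukocytes in the rises of miR-146a and others was not tested.

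For red cells, miR-451 averaged 1219 ± 215 CPM at 36 months and 1806 ± 459.9 CPM at 6 months, and for vessels miR-126a averaged 4328 ± 729.6 and 3649.6 ± 756 CPM, neither passing. With only the 2 ages in the fit miR-451 was called lower (-0.60, adjusted p = 0.0246). miR-204, of pigment cells, averaged 36162 ± 5852 CPM at 36 months and 29167 ± 7127 CPM at 6 months (0.31 ± 0.16, adjusted p = 0.186). Of the nerve markers, miR-124 had 57.6, 39.5, 89.2, 48.8 and 38.3 CPM at 36 months, against 15.1, 15.6, 22.3, 16.6 and 12.6 CPM at 6 months. These ranges did not overlap, yet with the spread shared over all ages the change of 1.73 ± 0.77 had an adjusted p of 0.119. At 42 months miR-124 was at 168 ± 325 CPM (SD, n = 5). None of the 13 neural microRNAs was called, and 7 had a change above 0 (median 0.32).

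Summed by microRNA number, 13 families rose (10.5% of those tested) and 15 fell (12.1%). The largest rises were those of miR-2189 (2.51), miR-31 (1.75), miR-726 (1.63), miR-146 (1.45) and miR-34 (1.45). The largest falls were those of miR-2185 (-3.32), miR-1388 (-1.84), miR-107 (-1.49), miR-206 (-1.36) and miR-455 (-1.25). These 10 kept their call under all alternatives. Apart from miR-146, miR-34 and miR-107, each holds a single name, so those families repeat counts tested above. The miR-34 counts were nearly all of miR-34a. The miR-146 family, both letters summed, averaged 7576 ± 2411 CPM at 36 months and 2764 ± 217.8 CPM at 6 months. Hairpins with neighbours within 10000 bases made 41 groups with at least 2 tested members. Of these groups 21 held a hairpin that rose or fell. Singly, 65 of all 258 hairpins tested were called, a share that does not compare with that of groups of several hairpins. None of the groups held both a rise and a fall, but many of the 21 held a single called hairpin and so could not. In some of the others the calls were of copies that may share reads.

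The levels at the other ages place these differences, with the reservation that strain labels differ there too and that all comparisons with 36 months share its libraries. Relative to 24 months, 5 microRNAs rose (2.63%) and 7 fell (3.68%) at 36 months. Among the rises were miR-203b, miR-454a and miR-218a, which were not called against 6 months (0.03, -0.19 and 0.32). Among the falls were miR-122 and miR-22b, not called against 6 months either (-0.88 and -0.49). Against 6 months, miR-218a was called higher in 3 of 23 alternatives and miR-22b lower in 1 of 23. Summed as a family, miR-22 fell against 6 months (-0.38, adjusted p = 0.0207), a call lost in 11 of 22 alternatives. The lowest adjusted p at 36 against 24 months was that of miR-222b. It averaged 253 ± 11.5 CPM at 6 months, 262 ± 51.2 at 12, 191 ± 24.7 at 24, 569 ± 129 at 36 and 478 ± 140.7 CPM at 42 months, and its change at 36 over 24 months was 1.57 ± 0.19 (adjusted p = 4.18e-06). miR-27c climbed at each age up to 36 months, with means of 4707 ± 986, 6693 ± 1145, 7697 ± 1026, 11375 ± 2137 and 8945 ± 1878 CPM at 6, 12, 24, 36 and 42 months (0.56 ± 0.17 for 36 over 24 months, adjusted p = 0.0491).

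miR-31 was already high at 12 months, at 46.7 ± 9.14, 150.3 ± 36.0, 171 ± 41.6, 164 ± 41.6 and 225 ± 98.2 CPM over the 5 ages, and the test of 36 against 24 months was not called (-0.06 ± 0.25, adjusted p = 0.909). miR-23a stood at 879 ± 93.3, 1157 ± 147, 1399.6 ± 274, 1694 ± 106.9 and 1587 ± 192.1 CPM, and the step from 24 to 36 months was not called (0.28 ± 0.12, adjusted p = 0.154). miR-146a averaged 2179 ± 122.5, 2125 ± 413, 3307 ± 1883, 6486 ± 2271 and 6119 ± 3307 CPM, and its change at 36 over 24 months missed the threshold (0.97 ± 0.32, adjusted p = 0.0583).

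The falls of the family of miR-103 and miR-107 ran over the ages as well. miR-107a averaged 916 ± 116, 771 ± 189.8, 613 ± 140.9, 354 ± 95.5 and 602 ± 154 CPM at 6, 12, 24, 36 and 42 months. It was lower at 36 than at 24 months (-0.79 ± 0.21, adjusted p = 0.0229) and higher at 42 than at 36 months (0.76 ± 0.21, adjusted p = 0.0268), so that 36 months was its low point. miR-107b had the same order, with 109 ± 22.7, 91.7 ± 24.8, 65.6 ± 19.3, 30.4 ± 12.6 and 59.5 ± 17.05 CPM. miR-1388 and miR-206 were also lower at 36 than at 24 months, by -0.97 ± 0.25 (adjusted p = 0.0229) and -1.53 ± 0.30 (adjusted p = 0.00351). miR-455 averaged 792 ± 156, 536 ± 100.3, 446 ± 90.5, 344 ± 33.0 and 355 ± 100.8 CPM, and its step from 24 to 36 months was not called (-0.37 ± 0.19, adjusted p = 0.194).

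**Figure D5:**
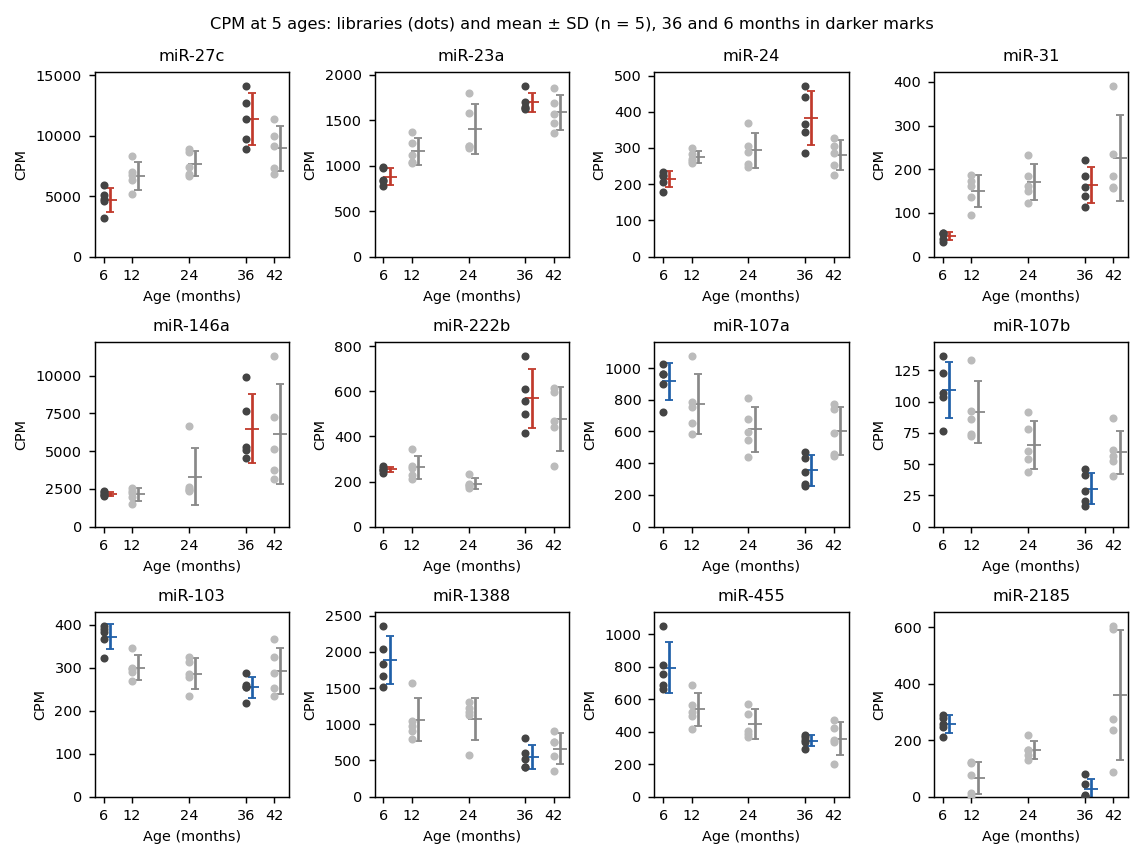
CPM (y axis, linear from 0) of 12 microRNAs against age in months (x axis), with 5 libraries per age as dots and mean ± SD beside them; 36 and 6 months are in darker marks. miR-27c, miR-222b and miR-146a are high at 36 months, miR-107a and miR-107b are lowest there, and miR-2185 goes down and up between ages.

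The 42-month libraries were of uneven depth, with 683884 counts on hairpins in replicate 2, 1524466 in replicate 4 and 1578189 in replicate 5. Replicates 1 and 3 held 2838826 and 2767653, and the lowest total at 36 and 6 months was 2139748. The part of depth in the 42-month spread was not tested. Against 36 months, 9 microRNAs were higher (4.74%) and 3 lower (1.58%) at 42 months. miR-2185 was the most uneven. It averaged 257 ± 30.95, 66.5 ± 57.2, 165 ± 32.6, 26.7 ± 34.5 and 359 ± 231 CPM at 6, 12, 24, 36 and 42 months, and rose by 3.73 ± 0.90 at 42 over 36 months (adjusted p = 0.0172). The test of 42 against 6 months did not separate those ages for it (0.48 ± 0.80, adjusted p = 0.686). Of the let-7 members that were lower at 36 months, let-7c (0.84 ± 0.18, adjusted p = 0.0172), let-7e (0.52 ± 0.16, adjusted p = 0.0489) and let-7g (0.49 ± 0.13, adjusted p = 0.0266) were higher at 42 than at 36 months. miR-223 was higher at 42 months too (1.43 ± 0.36 over 36 months, adjusted p = 0.0172). These 42-month calls depended on single libraries. Without 42 months replicate 1 edgeR called 0 names (33 at an unadjusted p under 0.05), without 42 months replicate 4 it called 23, and DESeq2 called 21 on all libraries. The calls of 36 against 24 months numbered between 3 (without 36 months replicate 4) and 22 (without 24 months replicate 2).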

How the data were processed

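Small RNA of male zebrafish skin was sequenced after library preparation with Illumina's TruSeq small RNA kit, per the labels' protocols. The submitters' processing notes list SAMtools 1.3.1-9, BWA 0.7.12-r1039, Trimmomatic 0.36 and CASAVA 1.8.4, with no roles. The hairpin reference, the build, the counting and its treatment of reads matching several copies were not given in the sources used here. Raw counts per hairpin make up the deposited table, with no normalization by the authors. Of 346 hairpins, 38 had no count in any library. No sequences are printed.

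Tests used edgeR 4.0.16 under R 4.3.3: TMM, filterByExpr (minimum count 10), quasi-likelihood F tests with all 25 libraries sharing the spread, and Benjamini-Hochberg adjustment at 0.05. Tests ran on 258 hairpins, on 190 names with copies summed and on 124 families by number. The SE is the log2 change divided by the root of F. At an unadjusted p under 0.05 there were 87 hairpins and 65 names. The script was tested on simulated data. In all, 33 lists were used, and their members were chosen with earlier results of these data known. Most text names were taken by rule. It took the 10 most abundant, the largest called changes per direction with and without overlap, and called members and the leader of each list. For families and other ages it took up to 5 per direction. Some names that it gave, miR-92a, miR-199 and miR-128 among them, are not described. By name, 319 of 346 hairpins were matched to RefSeq's GRCz12tu annotation, from which neighbours and host genes were read where there were any. Pairs of libraries within 36 months and within 6 months were checked, and none were duplicates. Alternatives were other scalings, filters, DESeq2 1.42.0, limma-voom (limma 3.58.1), robust estimation, fewer ages in the fit and leaving out libraries.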

Additional observations from a re-analysis of the deposited data

Results flagged for a closer look

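Among the groups of 5 libraries checked, 6 (4.23%) had a library farther from the others than Dixon's 95% limit of 0.71 of the range. Chance gives about 1 in 20 among independent groups. These groups come from the same libraries and are not independent, so the part of chance was not tested. At 36 months, miR-210, induced by hypoxia, was at 864 CPM in replicate 2 and between 461.9 and 538 CPM in the others. miR-27a was at 3734 CPM in 36 months replicate 3 and between 2848 and 2952 CPM in the others. The rare miR-430b was at 8.65 CPM in 36 months replicate 4 and between 1.69 and 3.14 CPM in the others. At 6 months, replicate 1 was the high library each time: the myeloid miR-223 was at 102 CPM against 46.1 to 59.7 CPM in the others, miR-462, known from antiviral responses in fish, at 74847 CPM against 45944 to 52775 CPM, and miR-730 at 45.4 CPM against 23.1 to 27.3 CPM.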

How the results depend on the processing

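No paired analysis was possible because the titles give each library its own number and no number is shared between ages. Of 35 microRNAs named by rule that rose or fell, 25 kept their call under all alternatives run (at most 23 each). miR-10b, miR-26b, miR-221, miR-454b, miR-489, miR-200b, miR-181b, miR-730, let-7c and miR-132 lost it in at least 1, and the cause was not tested. Rising hairpins numbered 28, but 50 with only the 2 ages in the fit and 46 without the 42-month group. Falling hairpins numbered 37, but 24 at a mean CPM of at least 100, where fewer were tested. Falling names numbered 18, but 29 with TMM factors of the hairpin table, chosen after seeing the data as were thinning and leaving out 2 libraries, and 13 to 30 without a library each. Calls of 36 against 24 months numbered 12, but 22 at a mean CPM of at least 100, 33 with DESeq2, 25 with limma-voom, 20 without the 42-month group and 3 to 22 without a library each. Calls of 42 against 36 months numbered 12, but 6 with library size alone, 21 with DESeq2, 1 with only the 2 ages in the fit and 0 to 23 without a library each. Signs reversed for miR-142a (0.06), to -0.0237 with library size alone, -0.0279 thinned, -0.0678 without 2 libraries, -0.0271 with hairpin TMM factors and between -0.10 and 0.12 without a library each. They reversed for miR-203b (0.03), to -0.00195 with upper-quartile scaling, -0.0377 with library size alone, -0.0136 without a filter, -0.00978 with only the 2 ages, -0.0419 thinned, -0.21 without 2 libraries, -0.0603 with hairpin TMM factors and between -0.17 and 0.12 without a library each. Under about 20 CPM, values rest on few reads.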

Other observations

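Several groups held no member that rose or fell at 36 months by name and with the scaling of the report. Both miR-29 microRNAs, known for repressing collagens, were higher in every 36-month library without passing the test. miR-29a averaged 588 ± 25.5 CPM at 36 months and 438 ± 59.7 CPM at 6 months (0.43 ± 0.16, adjusted p = 0.0577), and miR-29b averaged 170.2 ± 42.7 CPM at 36 months and 88.5 ± 8.70 CPM at 6 months (0.94 ± 0.39, adjusted p = 0.0938). Without the 42-month group in the fit, miR-29a was called higher (adjusted p = 0.0418), as was miR-101a (adjusted p = 0.0436). miR-101a, also without overlap, averaged 9696 ± 1227 CPM at 36 months and 6776 ± 1237 CPM at 6 months (0.52 ± 0.21, adjusted p = 0.0845), and the median of the 2 miR-101 names was 0.54. Of the 3 microRNAs of the miR-183 cluster (median -0.26), miR-182 averaged 4500.4 ± 853 CPM at 36 months and 6394 ± 771 CPM at 6 months, again without overlap (-0.51 ± 0.23, adjusted p = 0.119). miR-182 was called lower in the fit of hairpins (adjusted p = 0.0279) and in that of families (adjusted p = 0.0304). As miR-182 has a single hairpin, these fits test the same counts with other scaling and adjustment. The family call was lost in 12 of 22 alternatives. By name miR-182 was called lower with library size alone (adjusted p = 0.0235). So it was with only the 2 ages in the fit (adjusted p = 0.0258) and with TMM factors of the hairpins (adjusted p = 0.0303).

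All 8 names of the miR-15/16 list had a log2 change below 0 (median -0.21), and 4 of the 5 miR-30 names did (median -0.30), and no name of either list was called with the scaling of the report. Other settings called some of them lower: miR-16b with upper-quartile scaling, library size alone and TMM factors of the hairpins, miR-30a with the last 2 of these, miR-30c with those and after thinning, and miR-30b without 2 libraries. In the fit of hairpins miR-16b (adjusted p = 0.0178), miR-30a (adjusted p = 0.0392) and miR-30c (adjusted p = 0.0235) were lower. Each has a single hairpin, so that fit tests the same counts as the name, with other scaling and adjustment. Neither miR-148 nor miR-152 was called (median -0.25), nor were miR-462 and miR-731, known from antiviral responses in fish (median -0.35), the 4 mesenchymal names (-0.10), both endothelial names (0.24), both red-cell names (-0.43), the 3 liver and gut names (0.11) and the hypoxia microRNA miR-210 (0.49).

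The miR-430 family clears maternal messenger RNA in the early zebrafish embryo. None of its 59 hairpins had enough counts to be tested. Summed as a family it held 2.72, 3.70, 2.41, 12.8 and 5.60 CPM at 36 months, against 3.97, 1.21, 1.93, 1.43 and 1.79 CPM at 6 months, with overlap (1.41 ± 0.50, adjusted p = 0.0470). The call was lost in 13 of 19 alternatives, the one without 36 months replicate 4 among them. Chosen after its values were seen, miR-725 spread most, with 17556, 4047, 60.9, 23422 and 8499 CPM at 36 months, against 2453, 6463, 8798, 5474 and 11003 CPM at 6 months (0.65 ± 1.14, adjusted p = 0.702).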
